A study of Mus musculus with 10 samples.

Results

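The axon guidance ligands and receptors described here are 66 of the 47643 genes listed in the deposited tables. They were chosen by gene name alone: every semaphorin of classes 3 to 7 (Sema, 20 genes), plexin (Plxn, 9), neuropilin (Nrp, 2), Slit (3), Roundabout receptor (Robo, 4), netrin of the Ntn series (2), Unc5 receptor (4), ephrin (Efn, 8) and Eph receptor (14) that matched the naming pattern. RNA-seq was made from mesenchymal cells that flow cytometry had isolated from Peyer's patches, lymphoid tissue embedded in the small intestinal wall, of wild-type C57BL/6 mice. Both groups were negative for CD45 (leukocytes), EpCAM1 (epithelium), TER119 (red cells) and CD31 (endothelium) and positive for podoplanin, a mucin-like stromal glycoprotein. They differed in MAdCAM1, an adhesion molecule that binds lymphocytes: the MCi group was MAdCAM1-negative (n = 5 libraries) and the MRC group MAdCAM1-positive (n = 5 libraries). The sources used here give neither the age and sex of the mice nor how many animals a library holds, so p-values measure the spread between these libraries, which may in part be technical.

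These families were first described as cues that steer growing axons. Secreted Slits bind Robo receptors. Class 3 semaphorins are secreted and bind neuropilins, which pair with class A plexins, while most other semaphorins are membrane proteins that bind plexins directly. Netrins are laminin-like secreted proteins that bind Dcc, Neo1 and the Unc5 receptors. Ephrins stay on the cell surface and bind the Eph receptor tyrosine kinases of neighbouring cells. Outside the nervous system the same molecules act in vessel patterning, epithelial organisation, cell migration and immune cell traffic, and EphB receptors with ephrin-B ligands are known for positioning cells along the crypts of the intestine.

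The 10 libraries held between 3941032 and 8738115 exon reads. Madcam1 transcripts followed the labels, with 0 to 2.38 CPM (exon reads relative to the scaled library size) in MCi and 30.4 to 86.1 CPM in MRC. MRC 4 and MRC 5 stood apart from the other libraries of their group. The 10 epithelial markers examined (Epcam, Vil1, Fabp2, Krt8, Krt18, Krt19, Krt20, Cdh1, Lgals4 and Alpi) were all higher in both of them than in every other library, and summed to 15696 to 20414 CPM there, 10.7 to 2380 CPM in MRC 1 to 3 and 13.9 to 1218 CPM in MCi. All 8 fibroblast markers were lower in both than in MRC 1 to 3, with sums of 26559 to 26630 CPM against 91674 to 135005 CPM. MCi libraries held 44869 to 76298 CPM of the fibroblast markers. Of the 9 endothelial markers, Pecam1, Cdh5, Cldn5, Egfl7, Flt1 and Emcn stayed at or below 2.40 CPM in every library. Lyve1 reached 5.26 CPM, and Kdr reached 8.17 CPM in MCi and 9.34 CPM in MRC. Tek was at 8.92 to 33.3 CPM in MCi, 51.1 to 60.1 CPM in MRC 1 to 3 and 1.42 to 11.3 CPM in MRC 4 and 5. Leukocyte markers summed to 19.1 to 42.3 CPM in MCi and 13.7 to 61.6 CPM in MRC, with the highest sum in MRC 5. Lyz2 alone was at 16.2 to 37.0 CPM in MCi and 0.472 to 16.9 CPM in MRC, lowest in MRC 4. Of the 9 leukocyte markers found, 3 (Cd3e, Cd3g and Cd79a) were higher in both MRC 4 and 5 than in every other library. Those 3 were at 1.73 to 7.87 CPM there and at most 0.554 CPM elsewhere. Pericyte and smooth muscle markers summed to 3041 to 5125 CPM in MCi and 1129 to 2110.1 CPM in MRC. Singly, Acta2, Myh11, Tagln, Kcnj8 and Abcc9 were lower in every MRC than in every MCi library. The groups overlapped for Cnn1, Cspg4, Rgs5 (319 to 824 CPM in MCi, 269 to 750 CPM in MRC) and Des (114 to 198 CPM in MCi, 107 to 398 CPM in MRC). Mesothelial markers summed to 17.9 to 995 CPM in MCi and 0.478 to 1282 CPM in MRC. Krt19, which is also on the epithelial list, made up nearly all of the sum in MRC 4 and 5, and the other 5 (Upk3b, Msln, Lrrn4, Gpm6a and Wt1) were highest in MCi 4 and 5. Upk3b measured 235 and 226 CPM in those libraries, against 5.03 to 34.0 CPM in MCi 1 to 3 and at most 1.19 CPM in MRC. Msln measured 232 and 218 CPM in them, against 3.35 to 41.0 CPM in MCi 1 to 3 and at most 0.472 CPM in MRC. The part of these cell types in the members' values was not tested. In bulk RNA of this kind, fewer cells of a type and less RNA per cell cannot be told apart. The fold changes of the members given by library are stated over all 10 libraries and also without MRC 4 and MRC 5. That these 2 libraries stand apart was taken from the data, so p-values without them may not keep their nominal error rate.

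The 4 promoters shown here belong to members whose MRC against MCi difference changed between libraries 1 to 3 and libraries 4 and 5. Among the members that passed that test (given further on) they are the pair with the largest change in each direction: Sema3d and Slit2, which were low in MRC 4 and MRC 5, and Epha2 and Epha1, which were high there. Each line gives the 250 bases before the gene's start in RefSeq (GRCm38.p6), 5′ to 3′ on the gene's strand. Capitals mark 6-base matches, on either strand, to 4 motifs. TATAAA is the box found near some transcription starts. GGGCGG is the GC box bound by Sp1. CAGGTG is a form of the E-box. TTTATG occurs in the binding motif of Cdx homeobox factors.
Sema3d: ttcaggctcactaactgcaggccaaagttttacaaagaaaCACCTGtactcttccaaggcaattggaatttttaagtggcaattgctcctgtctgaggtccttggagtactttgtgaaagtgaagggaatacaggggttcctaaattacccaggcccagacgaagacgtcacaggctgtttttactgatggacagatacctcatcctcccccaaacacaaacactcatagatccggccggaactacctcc
Slit2: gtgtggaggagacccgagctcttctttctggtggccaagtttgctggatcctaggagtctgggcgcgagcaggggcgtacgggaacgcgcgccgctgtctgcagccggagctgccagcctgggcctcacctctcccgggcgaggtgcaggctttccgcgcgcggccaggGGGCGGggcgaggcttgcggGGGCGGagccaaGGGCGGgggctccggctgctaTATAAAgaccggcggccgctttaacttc
Epha2: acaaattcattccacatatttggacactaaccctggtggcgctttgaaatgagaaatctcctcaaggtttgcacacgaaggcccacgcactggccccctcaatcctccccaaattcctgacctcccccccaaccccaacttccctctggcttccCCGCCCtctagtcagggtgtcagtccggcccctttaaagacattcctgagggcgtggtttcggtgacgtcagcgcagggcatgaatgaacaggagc
Epha1: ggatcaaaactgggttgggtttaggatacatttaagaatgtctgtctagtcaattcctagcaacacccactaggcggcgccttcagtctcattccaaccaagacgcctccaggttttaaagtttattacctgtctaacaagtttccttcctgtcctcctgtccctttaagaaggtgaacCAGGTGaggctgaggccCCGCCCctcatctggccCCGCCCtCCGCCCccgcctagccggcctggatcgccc
The Sema3d window (chr5:12382916-12383165, plus strand, 46.8% G and C) held 1 CAGGTG match, read as CACCTG on this strand. The Slit2 window (chr5:47982905-47983154, plus strand, 69.6% G and C) held 1 TATAAA and 3 GGGCGG matches, and its last 17 bases lie inside the gene span of the deposited tables. The Epha2 window (chr4:141300971-141301220, plus strand, 55.6% G and C) held 1 GGGCGG match, read as CCGCCC. The Epha1 window (chr6:42373269-42373518, minus strand, 54.4% G and C) held 3 GGGCGG matches, read as CCGCCC, and 1 CAGGTG. No window held TTTATG. Of the 32851 RefSeq windows of this length, 12.4% held TATAAA, 32.7% GGGCGG, 17.2% CAGGTG and 10.8% TTTATG, so each match is common and is given as a description only.

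Of the 66 members, 51 had enough reads in enough libraries to be tested and 15 did not. The untested members held 2 to 177 exon reads over all 10 libraries and reached at most 11.96 CPM in any of them. They were Sema3g, Sema4f, Sema4g, Sema5b, Sema7a, Slit1, Robo3, Robo4, Unc5d, Efna3, Efnb3, Epha6, Epha8, Epha10 and Ephb1. Levels of different genes are compared only per exon length, in the deposited RPKM (exon reads per exon length and library size). On that scale 11 members averaged at least 10 RPKM over the 10 libraries and 23 averaged under 1 RPKM. The order was led by Nrp1 (68.3 RPKM), Slit3 (43.9), Plxnb2 (34.1), Ntn1 (18.5), Sema3c (17.8), Sema3b (15.8), Efnb1 (13.3) and Ephb4 (13.3). The last 5 of these means lie within the libraries' spread of one another, and the Slit3 range (8.5 to 101 RPKM) reaches across all of them.

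**Figure D1:**
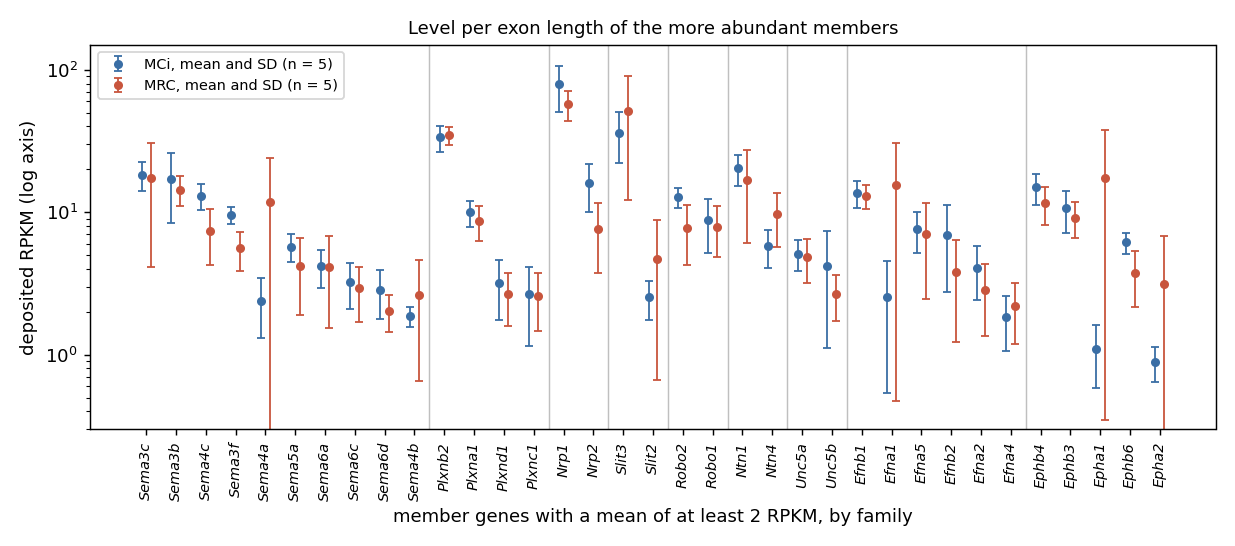
Deposited RPKM (log axis) of the 35 members with a mean of at least 2 RPKM, grouped by family, as the mean and SD of 5 MCi (blue) and 5 MRC (red) libraries. Bars that reach the lower edge of the plot are cut there because the SD is larger than or close to the mean; the wide red bars of Sema4a, Efna1, Epha1 and Epha2 come with MRC values far apart from each other.

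Over all 10 libraries no member passed the test in either direction, as 0 of 51 had an adjusted p under 0.05 (edgeR quasi-likelihood test, Benjamini-Hochberg over 12127 genes), where 0.437% of all genes tested did. An unadjusted p under 0.05 was found for 13 of 51 members, against 16.7% of all genes. The higher mean was in MRC for 5 of them (Epha1, Efna1, Ntn4, Sema4a, Epha5), against 1285 of 12127 genes. It was in MCi for 8 (Epha4, Sema4d, Sema3f, Plxnb3, Sema3e, Sema4c, Epha3, Nrp2), against 738 of 12127 genes. The median log2 fold change (MRC minus MCi) was 0.04 over the members and 0.01 over all genes, and 27 of the 51 lay above 0. DESeq2, which was an alternative, called 5 members, Epha1, Efna1, Ntn4 and Sema4a higher in MRC and Epha4 higher in MCi, against 7.02% of all genes. By direction these were 550 genes higher in MRC and 301 higher in MCi.

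**Figure D2:**
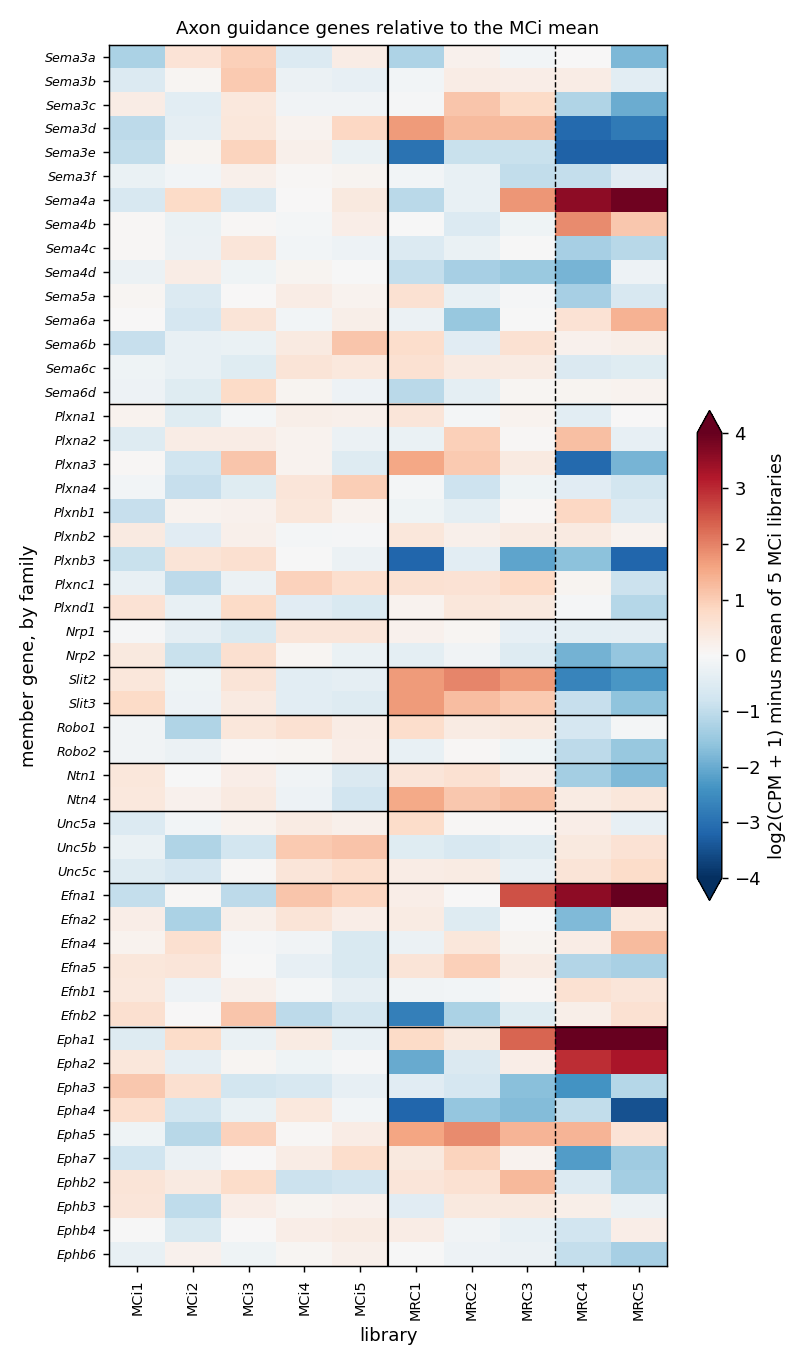
Each cell gives log2(CPM + 1) of 1 library minus the mean of the 5 MCi libraries for the 51 tested members, ordered by family; the solid line separates MCi from MRC, the dashed line MRC 1 to 3 from MRC 4 and 5, and the colour scale ends at 4 in each direction. Slit2, Slit3 and Sema3d are red in MRC 1 to 3 and blue in MRC 4 and 5, whereas Sema4a, Efna1, Epha1 and Epha2 are darkest red in MRC 4 and 5.

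Slits are secreted leucine-rich repeat proteins that bind Robo receptors. Slit2 (chr5:47983138-48307733, plus strand; promoter above) was at 57.2, 36.8, 60.8, 31.3 and 32.3 CPM in MCi libraries 1 to 5 and 139, 165, 140.2, 5.82 and 7.55 CPM in MRC libraries 1 to 5. MRC 1 to 3 lay above all 5 MCi libraries, and MRC 4 and 5 lay below all of them. The group means were 43.7 ± 14.2 CPM in MCi and 91.5 ± 78.1 CPM in MRC (SD, n = 5 each), and Slit2 did not pass over all libraries (log2 fold change 1.07 ± 0.84 (SE), adjusted p = 0.576, edgeR). Without MRC 4 and MRC 5 it was 3.39-fold higher in MRC and passed (log2 fold change 1.77 ± 0.24 (SE), adjusted p = 0.00709, edgeR over 12411 genes). It was the 1 member of 51 that passed there, where 1.03% of all genes did and 0.379% did so with the higher level in MRC. Leaving out a further library in turn kept that call in 7 of 8 fits (adjusted p 0.00729 to 0.0581), and it was lost without MRC 2. MRC 4 and MRC 5, which all these fits leave out, were set apart from the data and are the 2 libraries where Slit2 was lowest.

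Slit3 (chr11:35121224-35708507, plus strand), the second most abundant member per length, was at 348, 179, 264, 152 and 142 CPM in MCi libraries 1 to 5 and 671, 484, 419.6, 106 and 66.3 CPM in MRC libraries 1 to 5. Again MRC 1 to 3 lay above every MCi library and MRC 4 and 5 below every one. Over all libraries Slit3 did not pass (log2 fold change 0.69 ± 0.57 (SE), adjusted p = 0.604, edgeR), nor did it without MRC 4 and 5, at 2.42-fold higher in MRC (log2 fold change 1.28 ± 0.30 (SE), adjusted p = 0.0917, edgeR). DESeq2 without those libraries called both Slit2 and Slit3. Slit1 held 3 reads in all. The Slit receptor Robo2, at 12.7 ± 2.01 RPKM in MCi and 7.73 ± 3.46 RPKM in MRC, was at 185, 171, 211, 216 and 243 CPM in MCi libraries 1 to 5 and 167, 209.8, 181, 99.0 and 70.3 CPM in MRC libraries 1 to 5. MRC 2 and 3 lay within the MCi range, MRC 1 just below it, and MRC 4 and 5 were the 2 lowest of the 10 libraries (log2 fold change -0.50 ± 0.28 (SE), adjusted p = 0.405, edgeR). Robo1 was at 53.8, 25.0, 81.4, 91.7 and 73.9 CPM in MCi libraries 1 to 5 and 96.7, 74.9, 78.4, 36.8 and 56.0 CPM in MRC libraries 1 to 5, and the groups overlapped (log2 fold change 0.071 ± 0.35 (SE), adjusted p = 0.948, edgeR). The divergent family member Robo3 held 7 reads and the endothelial Robo4 held 9 reads over all libraries.

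Netrins are secreted proteins related to laminins. Ntn4 (chr10:93640681-93747207, plus strand), a basement membrane component that binds laminin, was at 27.7, 22.8, 26.6, 17.7 and 11.6 CPM in MCi libraries 1 to 5 and 60.7, 44.6, 48.5, 25.7 and 28.2 CPM in MRC libraries 1 to 5. Every MRC library except MRC 4 was above all 5 MCi libraries, and MRC 4 lay within the MCi range. The means were 21.3 ± 6.67 CPM in MCi and 41.5 ± 14.6 CPM in MRC (SD, n = 5 each), with log2 fold change 0.97 ± 0.30 (SE), adjusted p = 0.191 (edgeR). Without MRC 4 and 5 the level was 2.41-fold higher in MRC, which passed in DESeq2 but not in edgeR (log2 fold change 1.28 ± 0.27 (SE), adjusted p = 0.0602). With the library set (1 to 3, or 4 and 5) as a covariate, Ntn4 passed in edgeR (adjusted p = 0.0228), 1 of 2 members called there beside 1.7% of all genes. The sets were taken from these same data, so p-values of this fit may not keep their nominal error rate. The fit also takes the contrast to be the same in both sets. Ntn1 (chr11:68209364-68400823, minus strand), a netrin first known from the floor plate of the spinal cord, was more abundant per length than Ntn4, at 20.3 ± 5.04 RPKM in MCi and 16.8 ± 10.7 RPKM in MRC. It was at 168, 119.7, 146, 111 and 82.2 CPM in MCi libraries 1 to 5 and 171, 188, 151, 47.1 and 35.2 CPM in MRC libraries 1 to 5, so that MRC 2 and 1 were the highest 2 and MRC 5 and 4 the lowest 2 of the libraries. No difference between the groups was called (log2 fold change -0.083 ± 0.45 (SE), adjusted p = 0.952, edgeR).

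The repulsive netrin receptors of the Unc5 family showed no called difference. Unc5a was at 13.5, 18.6, 22.7, 25.6 and 23.8 CPM in MCi libraries 1 to 5 and 34.4, 21.0, 21.0, 24.6 and 15.9 CPM in MRC libraries 1 to 5. Unc5b was at 15.8, 7.76, 11.2, 40.9 and 44.0 CPM in MCi libraries 1 to 5 and 13.6, 11.9, 13.1, 25.7 and 29.2 CPM in MRC libraries 1 to 5, with the libraries numbered 4 and 5 above those numbered 1 to 3 in both groups. Unc5c was at 4.28, 3.77, 6.94, 9.70 and 11.1 CPM in MCi libraries 1 to 5 and 8.36, 8.55, 5.24, 9.92 and 11.7 CPM in MRC libraries 1 to 5. Its libraries numbered 4 and 5 likewise lay above those numbered 1 to 3 in both groups. The groups overlapped for all 3, with log2 fold changes of 0.16 for Unc5a, -0.36 for Unc5b and 0.28 for Unc5c. Unc5d held 2 reads in all.

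**Figure D3:**
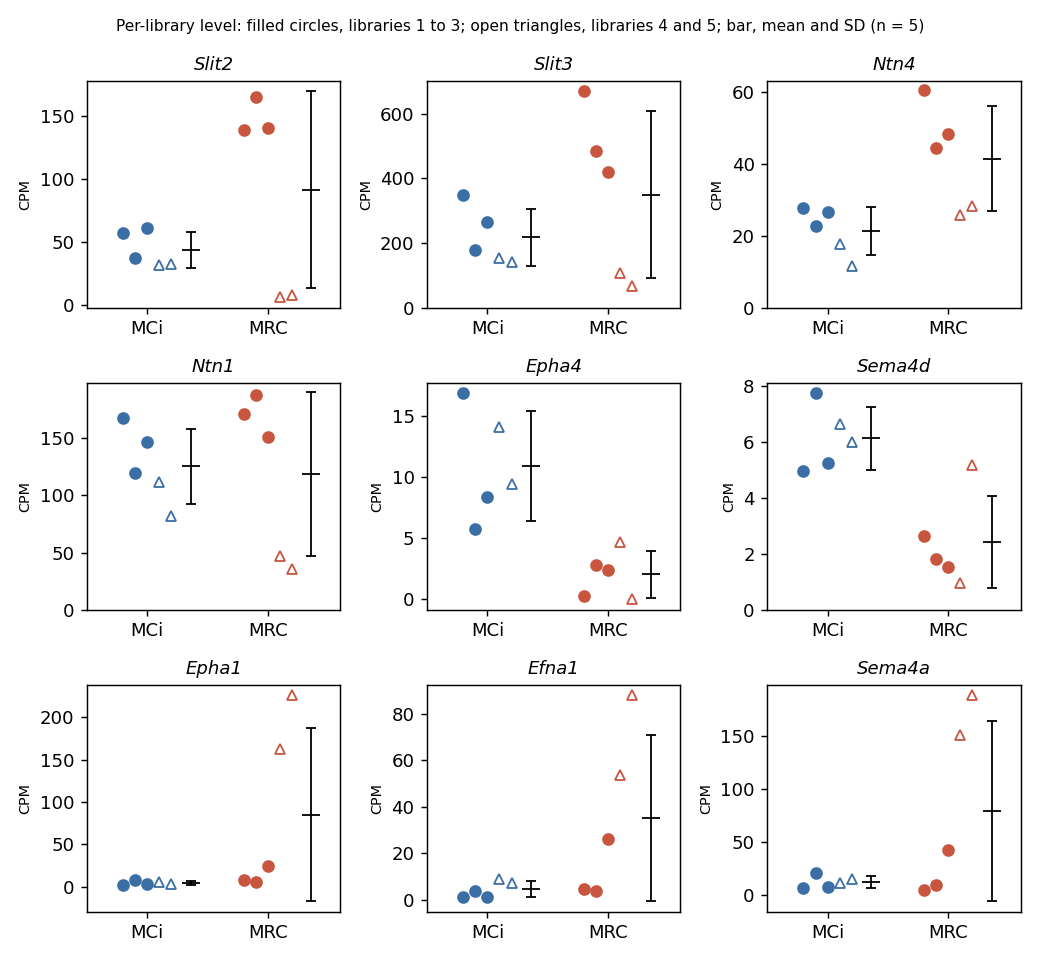
CPM of 9 members in each library, MCi in blue and MRC in red; filled circles are libraries 1 to 3, open triangles libraries 4 and 5, and the bar beside each group is its mean and SD (n = 5). Slit2, Slit3 and Ntn1 have both MRC triangles at the bottom, Epha1, Efna1 and Sema4a have them at the top, and Epha4 is the 1 member whose groups do not overlap.

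Among the secreted class 3 semaphorins, Sema3c and Sema3b were the most abundant. Sema3c, a ligand of both neuropilins, was at 154, 94.0, 168, 114 and 113 CPM in MCi libraries 1 to 5 and 122, 271, 214, 54.2 and 31.2 CPM in MRC libraries 1 to 5. MRC 2 and 3 were the 2 highest and MRC 4 and 5 the 2 lowest libraries, and the groups did not differ by the test (log2 fold change 0.11 ± 0.51 (SE), adjusted p = 0.947, edgeR). Sema3f, which binds Nrp2, was at 40.6, 44.8, 56.2, 50.7 and 52.9 CPM in MCi libraries 1 to 5 and 44.9, 39.1, 24.2, 24.6 and 35.4 CPM in MRC libraries 1 to 5, with means of 49.0 ± 6.31 CPM in MCi and 33.6 ± 9.09 CPM in MRC (SD, n = 5 each). Only MRC 1 reached the MCi range, and the difference did not pass (log2 fold change -0.54 ± 0.21 (SE), adjusted p = 0.239, edgeR). Sema3e, which can bind Plxnd1 without a neuropilin, had means of 9.36 ± 4.78 CPM in MCi and 1.71 ± 2.23 CPM in MRC (SD, n = 5 each) and did not pass either. It held 268 reads over the MCi libraries, 36 reads over MRC 1 to 3 and 0 reads in MRC 4 and MRC 5, so its fitted fold change there is not a measured size. Sema3d (chr5:12383385-12588948, plus strand; promoter above) falls outside the rule for named genes and was added after its values were seen. It was at 3.83, 6.65, 12.4, 9.83 and 16.7 CPM in MCi libraries 1 to 5 and 31.5, 23.1, 22.9, 0.157 and 0.397 CPM in MRC libraries 1 to 5. MRC 1 to 3 lay above all MCi libraries, and MRC 4 and 5 held 1 and 2 reads. DESeq2 called Sema3d without MRC 4 and 5, and edgeR did not (log2 fold change 1.37 ± 0.39 (SE), adjusted p = 0.155).

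Of the membrane semaphorins, Sema4d, a ligand of Plxnb1 that is also shed from lymphocytes, was at 4.96, 7.76, 5.26, 6.65 and 6.01 CPM in MCi libraries 1 to 5 and 2.63, 1.81, 1.53, 0.945 and 5.16 CPM in MRC libraries 1 to 5. MRC 5 lay within the MCi range and the other 4 MRC libraries lay below it. The difference was log2 fold change -1.34 ± 0.46 (SE), adjusted p = 0.213 over all libraries and log2 fold change -1.61 ± 0.41 (SE), adjusted p = 0.107 without MRC 4 and 5 (edgeR). Sema4a (chr3:88435959-88461182, minus strand), a semaphorin known for its roles in immune cells, was at 7.21, 20.8, 7.66, 11.9 and 15.9 CPM in MCi libraries 1 to 5 and 5.02, 9.32, 42.4, 151 and 189 CPM in MRC libraries 1 to 5. Its 3 highest values were in MRC 5, MRC 4 and MRC 3, in the order of the epithelial marker sums of these libraries, while MRC 1 and 2 lay near the MCi libraries. Over all libraries Sema4a had log2 fold change 2.64 ± 0.92 (SE), adjusted p = 0.225, and without MRC 4 and 5 it had log2 fold change 0.58 ± 0.65 (SE), adjusted p = 0.792 (edgeR). The part of the epithelial transcripts in this difference was not tested. Sema4c, a Plxnb2 ligand, had means of 58.8 ± 13.2 CPM in MCi and 38.7 ± 14.4 CPM in MRC (SD, n = 5 each; adjusted p = 0.29, edgeR), and 7.27% of its exon bases are shared with another gene. The other tested semaphorins, Sema3a, Sema3b, Sema4b, Sema5a, Sema6a, Sema6b, Sema6c and Sema6d, had log2 fold changes from -0.86 (Sema3a) to 0.80 (Sema4b).

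Neuropilins are co-receptors for class 3 semaphorins and for vascular endothelial growth factor. Nrp1, the most abundant member, was at 424, 341, 287, 610.0 and 613 CPM in MCi libraries 1 to 5 and 485, 457, 349, 334 and 339 CPM in MRC libraries 1 to 5. The groups overlapped (log2 fold change -0.21 ± 0.25 (SE), adjusted p = 0.729, edgeR), and MCi 4 and 5 were the 2 highest libraries. Nrp2 was at 230.2, 94.2, 274, 183 and 146 CPM in MCi libraries 1 to 5 and 134, 157, 120.4, 46.0 and 59.0 CPM in MRC libraries 1 to 5. Its 2 lowest values were those of MRC 4 and 5, the other 3 MRC libraries lay within the MCi range, and the difference did not pass (log2 fold change -0.85 ± 0.38 (SE), adjusted p = 0.294, edgeR).

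Plexins are the signalling receptors of semaphorins. Plxnb2, the most abundant plexin, was at 297, 168, 268, 218 and 225 CPM in MCi libraries 1 to 5 and 319, 266, 293, 295 and 257 CPM in MRC libraries 1 to 5. All 5 MRC libraries lay within 257 to 319 CPM and overlapped with MCi (log2 fold change 0.28 ± 0.18 (SE), adjusted p = 0.471, edgeR). Plxnb3, whose known ligand is Sema5a, was at 3.83, 11.7, 13.2, 7.89 and 6.64 CPM in MCi libraries 1 to 5 and 0, 5.70, 1.09, 1.89 and 0 CPM in MRC libraries 1 to 5. MRC 2 lay within the MCi range and the other MRC libraries below it, at 0 to 12 reads each (log2 fold change -2.33 ± 0.91 (SE), adjusted p = 0.249, edgeR). The glial gene Sox10 was at 26.2 to 85.4 CPM in MCi and 0 to 12.95 CPM in MRC, and the part of glial cells in the Plxnb3 difference was not tested. Plxna4 was at 22.1, 12.2, 16.8, 33.8 and 48.3 CPM in MCi libraries 1 to 5 and 22.2, 12.95, 20.8, 17.0 and 13.9 CPM in MRC libraries 1 to 5, with MCi 4 and 5 highest (log2 fold change -0.62 ± 0.36 (SE), adjusted p = 0.414, edgeR). Plexins A1, A2, A3, B1, C1 and D1 had log2 fold changes from -0.053 (Plxnd1) to 0.46 (Plxna2), none of them called.

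Ephrin-A ligands are held in the membrane by a lipid anchor and ephrin-B ligands span it. Efna1 (chr3:89271733-89281142, minus strand) was at 1.35, 3.77, 1.197, 8.86 and 7.26 CPM in MCi libraries 1 to 5 and 4.54, 3.63, 26.0, 53.5 and 88.0 CPM in MRC libraries 1 to 5. The 3 highest libraries were MRC 5, MRC 4 and MRC 3, as for Sema4a, and MRC 1 and 2 lay within the MCi range. Efna1 had log2 fold change 2.93 ± 0.93 (SE), adjusted p = 0.196 over all libraries and log2 fold change 1.31 ± 0.81 (SE), adjusted p = 0.588 without MRC 4 and 5 (edgeR). With the library set as a covariate it was the second member that passed (adjusted p = 0.0494, edgeR), with the limits given for Ntn4. Efnb1 was the most abundant ephrin per length, and was at 61.7, 39.7, 52.2, 43.4 and 35.6 CPM in MCi libraries 1 to 5 and 41.6, 42.0, 46.7, 70.4 and 64.2 CPM in MRC libraries 1 to 5, with overlapping groups (log2 fold change 0.19 ± 0.22 (SE), adjusted p = 0.72, edgeR). Efnb2, a ligand of Ephb4 known from arteries, was at 44.8, 28.6, 62.2, 13.2 and 16.5 CPM in MCi libraries 1 to 5 and 3.34, 11.1, 19.7, 33.1 and 43.1 CPM in MRC libraries 1 to 5. Within MCi the libraries 4 and 5 were lowest and within MRC they were highest, so that no single direction holds over the 2 sets (log2 fold change -0.57 ± 0.63 (SE), adjusted p = 0.708, edgeR). Efna4 was at 3.15, 4.88, 2.63, 2.35 and 1.45 CPM in MCi libraries 1 to 5 and 2.15, 4.14, 3.06, 3.62 and 7.95 CPM in MRC libraries 1 to 5, from 180 reads in all, and 10.51% of its exon bases are shared with other genes. Efna2 and Efna5 had log2 fold changes of -0.28 and 0.066.

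Eph receptors are receptor tyrosine kinases. Epha4 (chr1:77367185-77515088, minus strand), which binds ephrins of both classes, was the 1 member of 51 whose groups did not overlap over all 10 libraries, against 2.69% of all genes with that direction. It was at 16.9, 5.76, 8.38, 14.1 and 9.43 CPM in MCi libraries 1 to 5 and 0.239, 2.85, 2.40, 4.72 and 0 CPM in MRC libraries 1 to 5. Every MRC library lay below every MCi library, with MRC 1 and MRC 5 at 1 and 0 reads. The means were 10.9 ± 4.51 CPM in MCi and 2.04 ± 1.96 CPM in MRC (SD, n = 5 each), a difference that did not pass in edgeR (log2 fold change -2.38 ± 0.78 (SE), adjusted p = 0.203) and passed in DESeq2 (adjusted p = 0.0304). Without MRC 4 and 5 it was log2 fold change -2.56 ± 0.64 (SE), adjusted p = 0.102 (edgeR). No member had all 5 MRC libraries above all MCi libraries, against 1.1% of genes. Epha5 was at 0.901, 0, 3.11, 1.25 and 1.66 CPM in MCi libraries 1 to 5 and 5.49, 6.99, 4.59, 4.57 and 2.19 CPM in MRC libraries 1 to 5, from 153 reads in all. MRC 1 to 4 lay above the MCi range and MRC 5 within it (log2 fold change 1.76 ± 0.68 (SE), adjusted p = 0.245, edgeR).

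Epha1 (chr6:42358487-42373268, minus strand; promoter above) had the largest log2 fold change of the tested members. It was at 2.48, 7.31, 3.11, 5.26 and 3.01 CPM in MCi libraries 1 to 5 and 7.405, 5.44, 23.8, 163 and 226 CPM in MRC libraries 1 to 5. MRC 4 and 5 were far above every other library, MRC 3 came next, MRC 1 lay just above the highest MCi library and MRC 2 within the MCi range. The fit over all libraries gave log2 fold change 4.33 ± 1.09 (SE), adjusted p = 0.137, and without MRC 4 and 5 it gave log2 fold change 1.53 ± 0.53 (SE), adjusted p = 0.251 (edgeR). For 6.01% of its exon bases another gene is annotated, and the library kit did not mark strand. Epha2, which was added after its values were seen, was likewise highest in MRC 4 and 5: it was at 5.86, 2.88, 4.31, 3.46 and 3.84 CPM in MCi libraries 1 to 5 and 0.239, 2.33, 5.02, 37.6 and 46.9 CPM in MRC libraries 1 to 5. MRC 3 lay within the MCi range and MRC 1 and 2 below it, and without MRC 4 and 5 the log2 fold change was -0.67 ± 0.69 (SE). The epithelial markers are highest in the same 2 libraries, and their part in the Epha1, Epha2 and Efna1 levels was not tested. Ephb4, the most abundant Eph receptor and known as the venous partner of Efnb2, was at 64.9, 43.4, 67.0, 80.3 and 82.8 CPM in MCi libraries 1 to 5 and 81.7, 60.1, 53.7, 38.7 and 79.1 CPM in MRC libraries 1 to 5, with overlapping groups (log2 fold change -0.11 ± 0.24 (SE), adjusted p = 0.868, edgeR). Ephb3, a receptor of the intestinal crypt, had means of 65.7 ± 21.4 CPM in MCi and 66.8 ± 17.1 CPM in MRC (SD, n = 5 each). Epha3, Epha7, Ephb2 and Ephb6 had log2 fold changes from -1.81 (Epha3) to 0.24 (Ephb2), none of them called.

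When MRC 1 to 3 were set against the 5 MCi libraries, 5 of 51 members lay wholly higher in MRC (Slit2, Slit3, Ntn4, Sema3d and Epha5), 9.80% against 4.62% of all genes. In the other direction 2 of 51 did (Epha4 and Sema4d), against 5.07% of all genes. DESeq2 without MRC 4 and 5 called 6 members, Slit2, Slit3, Ntn4 and Sema3d higher in MRC and Epha4 and Sema4d higher in MCi, against 4.36% of all genes. By direction these were 233 genes higher in MRC and 308 higher in MCi.

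Without MRC 4 and 5, none of the other members given by library was called in edgeR, at adjusted p of 0.294 to 0.984. Among the Slit and netrin receptors, the log2 fold changes were then 0.35 for Robo1, -0.14 for Robo2, 0.28 for Unc5a, -0.91 for Unc5b and 0.031 for Unc5c. Among the semaphorin receptors they were -0.080 for Nrp1, -0.44 for Nrp2, -0.52 for Plxna4, 0.32 for Plxnb2 and -1.94 for Plxnb3, and among the Eph receptors 2.02 for Epha5, -0.056 for Ephb4 and 0.086 for Ephb3. Among the ligands they were 0.44 for Ntn1, 0.66 for Sema3c, -1.70 for Sema3e, -0.44 for Sema3f and -0.28 for Sema4c and, for ephrins, 0.12 for Efna4, -0.094 for Efnb1 and -1.52 for Efnb2. The Efnb2 value was thus farther from 0 without MRC 4 and 5 than over all libraries, those of Robo2 and Nrp2 were nearer to 0, and those of Ntn1 and Efnb1 turned sign.

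The libraries numbered 4 and 5 were then compared with those numbered 1 to 3, a division that the labels do not name and that was taken from the data. Within MRC, 22 of 51 members (43.1%) had libraries 4 and 5 both below libraries 1 to 3, against 28.1% of all genes, and 11 (21.6%) had both above, against 29.0%. Within MCi the same relations held for 9 (17.6%, all genes 16.2%) and 15 members (29.4%, all genes 17.7%). MCi 4 and MCi 5 were more alike than any other pair within a group (chi-square per degree of freedom 7.77, against 20.8 to 215). Whether they are separate replicates is not in the labels. The MRC against MCi contrast was fitted in each set alone. In libraries 1 to 3, Slit2 was the 1 member called, beside 0.801% of all genes. In libraries 4 and 5, 23 of 53 members were called, beside 26.2% of all genes. Of these 8 were higher in MRC (Epha1, Epha2, Efna1, Efnb2, Sema4a, Sema4b, Sema4g and Sema7a; all genes 15.5%) and 15 higher in MCi (Slit2, Sema3c, Sema3d, Sema3e, Sema4c, Sema5a, Sema6c, Nrp1, Nrp2, Plxna4, Robo1, Robo2, Ntn1, Epha7 and Ephb6; all genes 10.7%). Sema4g and Sema7a did not pass the read filter applied to all 10 libraries and entered through the same filter applied to libraries 4 and 5 alone. Such a filter can admit a gene through the group where it is high, so their calls are not counted as support. Slit2 was called in both sets with opposite signs.

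The difference of the contrast between the sets was tested as an interaction. As the sets were drawn from these same data, its p-values do not keep their nominal error rate and serve to rank the members. The difference passed for 14 of 51 members, beside 10.4% of all genes (edgeR, adjusted over 12127 genes). The contrast lay more toward MCi in libraries 4 and 5 for 10 of them, beside 4.68% of genes, and more toward MRC for 4, beside 5.76%. For Slit2 the log2 fold change was 1.52 in libraries 1 to 3 and -2.32 in libraries 4 and 5, a difference of -3.77 ± 0.35 (SE) with adjusted p = 0.00293. The Slit2 and Sema3d differences passed in all 10 fits that left out 1 library. In 4 of these fits, those without MCi 4, MCi 5, MRC 4 or MRC 5, 1 library remained in that arm and is assumed to vary like the others. Slit3 changed from 1.00 to -0.83 (difference -1.77 ± 0.44 (SE), adjusted p = 0.0325) and passed in 3 of 10 such fits. Robo2 changed from -0.023 to -1.50 and passed in 8 of 10, and Ntn1 changed from 0.24 to -1.30 and passed in 7 of 10. In the other direction Epha2 changed from -0.76 to 3.45 (difference 4.28 ± 0.97 (SE), adjusted p = 0.0235), passing in 6 of 10. Epha1 changed from 1.51 to 5.50 and passed in 1 of 10. With all libraries 14 members and 1266 genes passed. Without MRC 2 these were 5 members and 456 genes, and without MCi 2 they were 8 and 655. Without MCi 1 there were 9 members and 870 genes, and without MCi 3 there were 9 and 929. Without MCi 4, and likewise without MCi 5, most of the members' differences and most of those of all genes no longer passed.

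**Figure D4:**
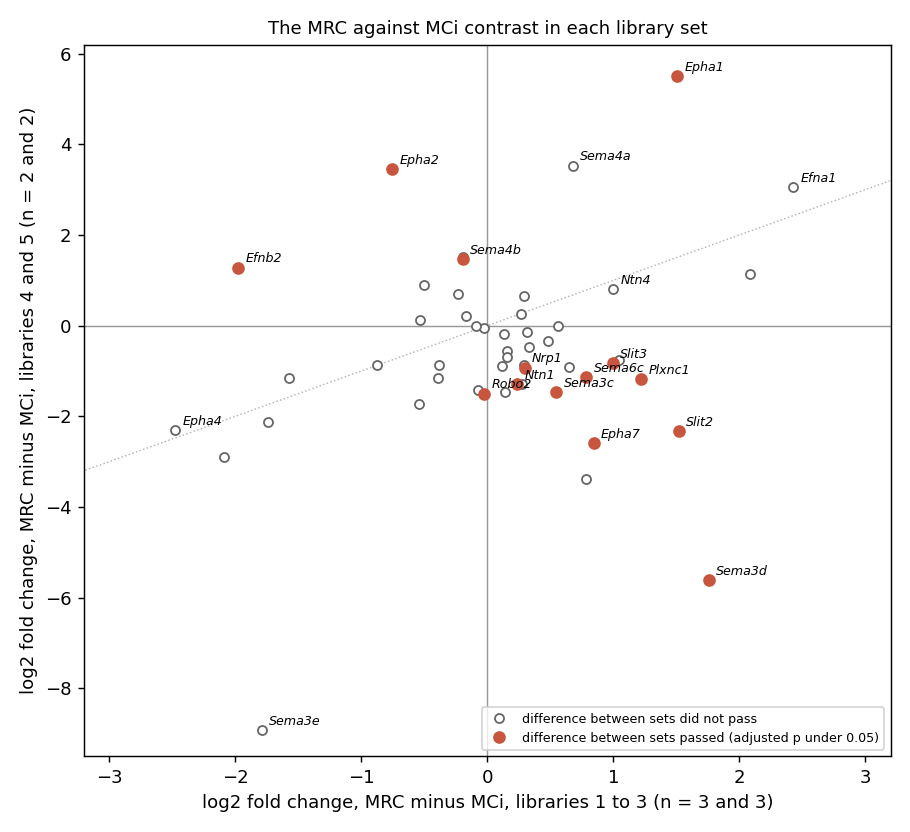
Log2 fold change (MRC minus MCi) in libraries 1 to 3 (x axis) and in libraries 4 and 5 (y axis) for the 51 tested members; filled points passed the test of the difference between sets, and the dotted line marks equal values. In the signs of the 2 fits 7 members were above 0 in both, 12 below 0 in both, 23 above and then below, and 9 below and then above; the position of Sema3e rests on 0 reads in MRC 4 and 5.

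A list of 40 other genes of these pathways, co-receptors, inhibitors and signalling partners that were all in the tables, was counted in the same fits. Of the 34 tested, 0 passed over all libraries (all genes 0.437%), and 6 had an unadjusted p under 0.05, all with the higher mean in MRC (all genes, 1285 of 12127 with that direction and 16.7% in either). DESeq2 called 3 (Draxin, Ngef and Mical1; all genes 7.02%). Draxin, a secreted antagonist that binds netrin and Dcc, was at 0.225, 1.99, 2.39, 0.831 and 0.207 CPM in MCi libraries 1 to 5 and 7.405, 8.03, 4.81, 23.3 and 8.34 CPM in MRC libraries 1 to 5. All MRC libraries lay above all MCi libraries (log2 fold change 3.25 ± 0.72 (SE), adjusted p = 0.0874, edgeR). Ngef, an exchange factor that acts below Epha4, was highest in MRC 4 and 5, at 30.5 and 33.0 CPM, against at most 3.49 CPM elsewhere. Without MRC 4 and 5 the log2 fold change of Ngef was 1.51 in place of 4.02, that of Draxin was 2.62, and neither passed (edgeR). Mical1, an oxidoreductase that binds plexins and acts on actin, had means of 44.2 ± 14.2 CPM in MCi and 91.1 ± 38.2 CPM in MRC, and Vav2, an exchange factor below Eph receptors, had 29.6 ± 12.5 CPM in MCi and 48.0 ± 15.4 CPM in MRC (SD, n = 5 each). Flrt3, a leucine-rich repeat protein that binds Unc5 receptors, had 60.7 ± 20.2 CPM in MCi and 111 ± 38.1 CPM in MRC (SD, n = 5 each; log2 fold change 0.87 ± 0.29 (SE), adjusted p = 0.204, edgeR). Its relative Flrt2 was the 1 of 36 list genes that passed without MRC 4 and 5, where 1.03% of all genes did (log2 fold change 1.91 ± 0.35 (SE), adjusted p = 0.0375, edgeR), with 75.5, 65.8 and 59.0 CPM in MRC 1 to 3, 8.501 and 3.58 CPM in MRC 4 and 5, and 8.61 to 27.9 CPM in MCi. The netrin receptor Dcc held 5 reads in all, whereas the related receptor Neo1 had 105 ± 34.1 CPM in MCi and 94.6 ± 47.6 CPM in MRC.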

How the data were processed

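RNA-seq of 5 MCi and 5 MRC libraries was analysed from 1 deposited table per library. Per the labels' protocols, RNA was extracted with a column kit and cDNA was amplified with SMART-Seq v4, which does not mark strand. Per the file headers, the authors' tables give counts of unique exon reads, of all exon reads (the total used here) and of gene reads, and RPKM. The build GRCm38 is from the submitters' processing notes; the aligner and the annotation were not given in the sources used here. From the values, the deposited RPKM are exon reads per exon length and per total gene reads.

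Total exon reads (3941032 to 8738115 per library) were tested. Genes were kept by filterByExpr (minimum count 10, minimum total 15), scaled by TMM and fitted with edgeR 4.0.16 (robust quasi-likelihood, R 4.3.3), with Benjamini-Hochberg adjustment over 12127 genes and a threshold of 0.05. Log2 fold changes are MRC minus MCi, their SE is the absolute value over the root of F, and CPM are exon reads over the kept reads scaled by TMM. Alternatives used DESeq2 1.42.0, limma 3.58.1 on log2(RPKM + 1) or log2(RPKM + 0.1), other scalings and filters, other read classes, and left-out libraries. Only the plain comparison of all MRC with all MCi libraries was checked on simulated counts, in edgeR, DESeq2 and limma (there on CPM). The fits by library set, with a covariate or block, and of the difference between sets were not simulated. PCR copies were not removed by molecular identifiers.

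Members with values in every library were those that passed with or without MRC 4 and 5, the 3 smallest p-values in each family and the most abundant of each family. Rows for Ntn5 carry numbered names and fall outside the naming rule. The members, the pathway list and the markers were chosen with earlier results of these data known. Promoters were matched by symbol to RefSeq (GRCm38.p6), and strands to GENCODE. Chi-square per degree of freedom was 7.77 between MCi 4 and MCi 5 and 20.8 to 215 between the other pairs of a group. None was counted as a duplicate. The sources used here do not say whether MCi 4 and MCi 5 come from separate animals. The list of glial and neuronal markers is not reported here as a whole.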

Additional observations from a re-analysis of the deposited data

Results flagged for a closer look

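No library stood out alone: in 52 groups of 5 libraries (the 26 members given with the value in every library, each in MCi and MRC), none had a highest or lowest value whose gap to the next exceeded Dixon's critical ratio of 0.71, where chance alone gives about 1 in 20.

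For 14 members the MRC against MCi contrast in libraries 4 and 5 differed from that in libraries 1 to 3 by the interaction test (edgeR, adjusted p under 0.05; 10.4% of all genes). The library sets are not named by the labels, so a batch cannot be told apart from other differences between them. The sets were drawn from these same data, so the adjusted p-values of this test do not keep their nominal error rate. On the log2 scale, the contrast was lower in libraries 4 and 5, with differences of -7.28 ± 0.87 (SE) for Sema3d (1 and 2 reads in MRC 4 and 5), -3.77 ± 0.35 (SE) for Slit2, -3.36 ± 0.56 (SE) for Epha7, -2.34 ± 0.50 (SE) for Plxnc1, -1.96 ± 0.52 (SE) for Sema3c, -1.85 ± 0.34 (SE) for Sema6c, -1.77 ± 0.44 (SE) for Slit3, -1.47 ± 0.31 (SE) for Ntn1, -1.41 ± 0.28 (SE) for Robo2 and -1.16 ± 0.30 (SE) for Nrp1. It was higher, with differences of 4.28 ± 0.97 (SE) for Epha2, 4.06 ± 0.97 (SE) for Epha1, 3.34 ± 0.81 (SE) for Efnb2 and 1.72 ± 0.49 (SE) for Sema4b. Epithelial markers were highest in MRC 4 and 5 (15696 to 20414 CPM) and 5 of 6 mesothelial markers in MCi 4 and 5 (Upk3b 235 and 226 CPM, against at most 34.0 CPM elsewhere). Fibroblast markers were lowest in MRC 4 and 5 (26559 to 26630 CPM). The part of these cell types in the differences was not tested. Sema3d, Epha7, Plxnc1, Sema6c, Epha2 and Sema4b were named after their values were seen.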

How the results depend on the processing

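Over all 10 libraries the count of members with an adjusted p under 0.05 was 0 in each direction in edgeR under every scaling, filter and read class tried, without each single library, and in limma on RPKM. The labels do not say whether equal replicate numbers pair the libraries. Correlations of same-numbered deviations were -0.25 to 0.52, and 2 of 5 MRC libraries were closest to their own number. Pairing is not excluded by this, because MRC 4 and MRC 5 each correlated with both MCi 4 and MCi 5 (0.33 to 0.46). With the number as a replicate block 0 members were called and the 12127 genes gave 49 calls instead of 53. DESeq2 called 4 members higher in MRC and 1 higher in MCi over all libraries, and 4 and 2 without MRC 4 and 5. In edgeR the count higher in MRC was 1 without MRC 4 and 5, also with DESeq2 size factors or upper-quartile factors, 1 in libraries 1 to 3, 8 in libraries 4 and 5 and 2 with a covariate for the library set. The count higher in MCi was 15 in libraries 4 and 5. The 8 higher in MRC there include Sema4g and Sema7a, which were not tested over all 10 libraries. Leaving out single libraries, alone or beside MRC 4 and 5, gave 0 to 2 members higher in MRC (the second was Slit3, without MCi 1). When a library numbered 1 to 3 was left out, the contrast differed between the sets for 5 to 13 members, beside 456 to 1517 genes. Most of these differences, in members and in all genes, were lost without MCi 4 or MCi 5. The fits without MRC 4 and 5 other than the planned one, and all those of the difference between sets, were chosen after seeing the data. The planned fit without MRC 4 and 5 also rests on a division of the libraries that was taken from the data.

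Of 924 values of the 26 members given by library, over 36 alternatives, 813 kept their sign and side of the threshold, 79 turned sign and 32 gained a call. For 10 of the 26 the sign never turned. In each case the cause was not tested. Log2 fold changes of the opposite sign were found in libraries 1 to 3 for Efna4 (-0.19), Ephb4 (0.16), Plxna4 (0.14), Nrp1 (0.30), Unc5b (0.16), Ntn1 (0.24) and Efnb1 (-0.23). In libraries 4 and 5 they were found for Unc5c (-0.016), Sema3c (-1.47), Slit2 (-2.32), Efnb2 (1.28), Slit3 (-0.83), Unc5a (-0.35) and Robo1 (-0.91). Sema3c turned with the replicate block (-0.29) and with the covariate (-0.22). RPKM carry no TMM scaling, and the median of all genes on log2(RPKM + 1) was -0.21. There Sema3c was at -0.45, Unc5a -0.075, Robo1 -0.11 and Efnb1 -0.060, with or without a filter. On log2(RPKM + 0.1) Sema3c was at -0.51, Slit2 -0.10, Unc5a -0.091, Robo1 -0.11 and Efnb1 -0.064. Robo1 was at -0.0085 with upper-quartile factors and -0.033 for gene reads. Without MRC 4 and 5, Ntn1 was at 0.44 and Efnb1 at -0.094 in edgeR, 0.45 and -0.081 in DESeq2, 0.45 and -0.084 with DESeq2 size factors, and 0.43 and -0.11 with upper-quartile factors. With 1 library left out, alone or beside MRC 4 and 5, the ranges that crossed 0 were -0.83 to 2.94 for Sema4a, -0.16 to 3.31 for Efna1, -0.13 to 0.86 for Efna4, -0.13 to 0.53 for Unc5c, -0.29 to 0.92 for Sema3c, -0.25 to 0.068 for Ephb4, -0.34 to 0.052 for Nrp1, -1.13 to 0.024 for Unc5b, -0.31 to 0.57 for Ntn1, -0.027 to 0.41 for Unc5a, -0.10 to 0.51 for Robo1 and -0.18 to 0.35 for Efnb1. The adjusted p of Slit2 ran from 8.45e-09 (DESeq2 without MRC 4 and 5) to 0.952 (replicate block). A count of 3 reads corresponds to 0.343 to 0.761 CPM, so differences at that level, as for Sema3e in MRC, were not measurable.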
